A study of Drosophila melanogaster with 2 samples.

Results

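Binding of Senseless-2 at the genes that encode the Polycomb and trithorax groups of chromatin regulators was examined in whole Drosophila melanogaster embryos. The genes were chosen by name: 35 of the 13968 protein-coding genes of the annotation, of which 18 encode Polycomb group repressors and 17 trithorax group activators. The gene sens-2 encodes Senseless-2, a zinc-finger protein that binds DNA and is related to Senseless, which acts in the making of sensory organs. The data were ChIP-seq peak lists, in which a peak is a stretch of genome recovered more often than its surroundings and its summit is the point of highest recovery. The embryos were of strain sens-2-GFP and expressed a sens-2-eGFP fusion, they were 0 to 24 h old, and the chromatin was sheared to 200 to 800 bp and recovered with an antibody against GFP. The 2 biological replicates carried the same insertion and formed 1 group, with no other genotype, treatment or age. No input, mock or untagged library was analysed here, so no background level of recovery stands beside the values.

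Polycomb group proteins keep developmental genes silent. Polycomb repressive complex PRC2 methylates histone H3, PRC1 binds that mark and ubiquitinates histone H2A, PhoRC brings these complexes to DNA, and PR-DUB removes the ubiquitin again. Trithorax group proteins act against them, through histone methyltransferases of the COMPASS family, the Brahma nucleosome remodeller, other remodelling ATPases, the DNA-binding GAGA factor and part of Mediator. In the embryo both groups keep the Hox genes on or off after the factors that first set their pattern are gone.

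Summits lay in the domains of 15 of the 35 genes (42.9%), a domain being the gene body with 2 kb upstream, in the conservative list of 2883 peaks that the authors made from both replicates. Over all protein-coding genes the share was 17.9%. Repressors and activators had close shares, 8 of 18 (44.4%) and 7 of 17 (41.2%). The bound repressors were ph-p, ph-d, Psc, Su(z)2, E(z), Su(z)12, phol and calypso, and the bound activators trx, brm, osa, kis, Trl, skd and Alh. These 15 genes held 24 summits, 12 in each group. Peak strength is given as the authors' signal value, which has a scale of its own in each list. The signal of a gene's strongest summit had a median of 140.4 over the 15 genes and of 92.4 over the 2500 protein-coding genes with a summit, which ranged from 23.8 to 1085. Among the top 288 of the 2883 peaks were the strongest summits of 6 of the 15 genes (40%) and of 369 of the 2500 (14.8%). The strongest was taken from 2 or more summits in 7 of the 15 genes (46.7%) and in 596 of the 2500 (23.8%). These shares were not tested, since the genes were listed with earlier results of these data known and differ from other genes in length, as described further on. In whole embryos, binding in fewer cells and weaker binding in more cells cannot be told apart.

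**Figure D1:**
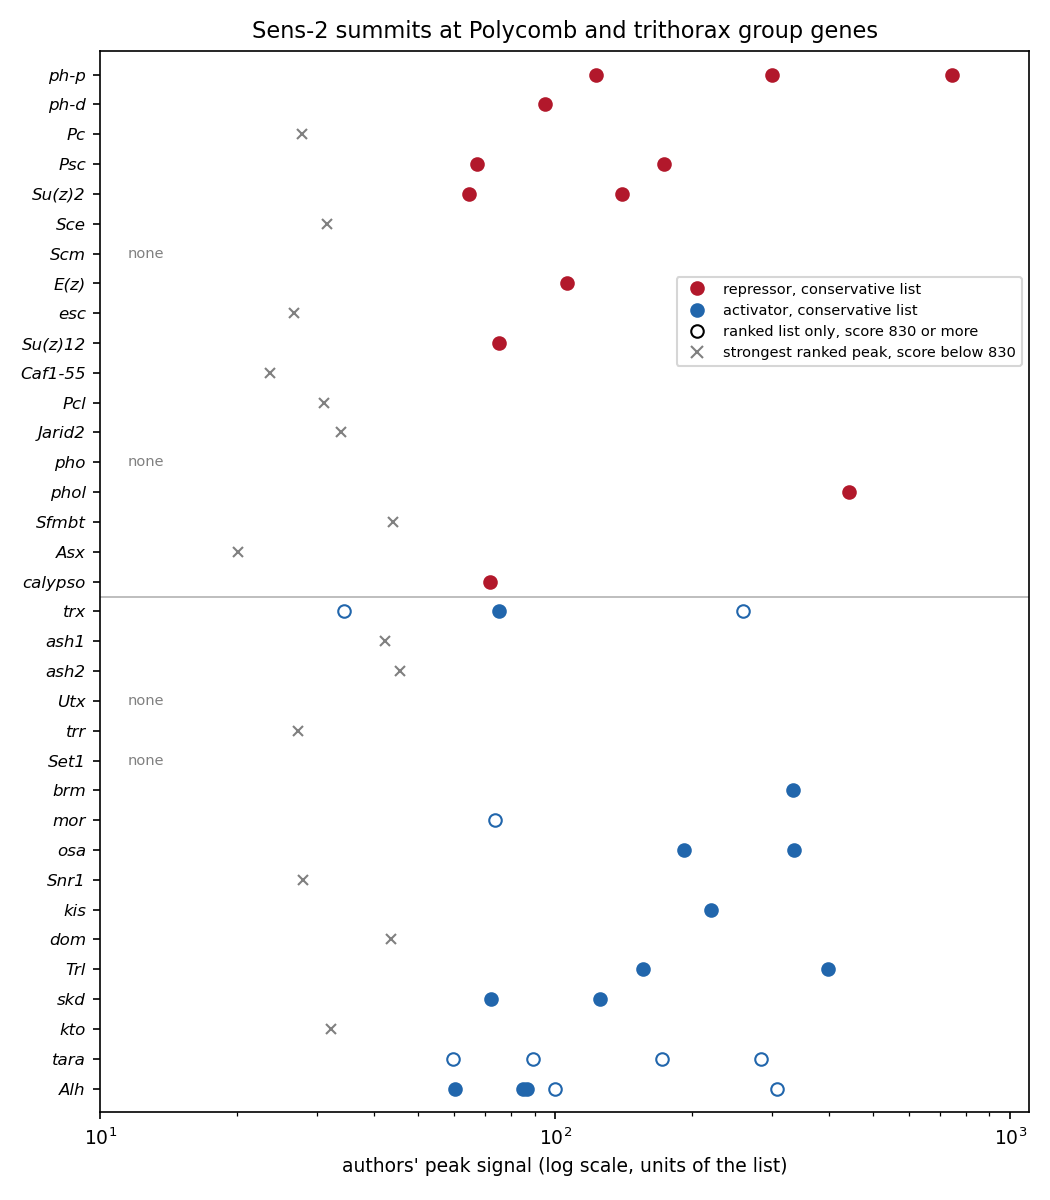
Signal of every summit in the domains of the 35 genes, on a log axis in the units of the list that compared the replicates. Filled circles are summits of the conservative list, coloured by group; open circles are peaks with a score of 830 or more in the ranked list alone; crosses are the strongest ranked peak of genes with neither. Values run from 745 at ph-p down to 20.1 at Asx, and trx, mor, tara and Alh hold all of the open circles.

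The sequence under the strongest summits is printed because it shows the kind of DNA that was recovered at these genes, from 50 bp before to 50 bp after the summit in Release 6 of the genome from RefSeq (dm6 coordinates), plus strand, 5′ to 3′. The first 5 are the 5 members with the highest signal. The stretch at trx was chosen after its motifs were seen, as the only one of the 24 summits with AAATCA, the core of the site bound by Senseless. Capitals mark AAATCA or TTAAAA on either strand (TGATTT and TTTTAA on the minus strand).
ph-p, chrX:2137305-2137405: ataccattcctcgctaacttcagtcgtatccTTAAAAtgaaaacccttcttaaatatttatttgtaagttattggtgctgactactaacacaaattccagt
phol, chr3L:9457753-9457853: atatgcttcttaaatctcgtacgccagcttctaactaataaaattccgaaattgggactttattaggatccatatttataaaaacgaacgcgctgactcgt
Trl, chr3L:14759441-14759541: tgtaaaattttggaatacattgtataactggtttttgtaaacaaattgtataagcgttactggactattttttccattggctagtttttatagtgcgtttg
osa, chr3R:17704353-17704453: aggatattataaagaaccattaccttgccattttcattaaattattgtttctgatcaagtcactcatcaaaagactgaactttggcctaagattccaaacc
brm, chr3L:15982957-15983057: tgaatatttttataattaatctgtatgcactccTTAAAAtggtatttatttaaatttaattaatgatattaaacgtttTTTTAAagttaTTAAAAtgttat
trx, chr3R:14278084-14278184: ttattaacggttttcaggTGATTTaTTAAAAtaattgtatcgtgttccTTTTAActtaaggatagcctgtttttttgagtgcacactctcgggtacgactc

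Those of ph-p, phol, Trl, osa and brm held no AAATCA, and ph-p and brm held TTAAAA. At trx both were present, with AAATCA on the minus strand.

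Polycomb repressive complex PRC1, the largest subset listed, had the most bound genes, 4 of 7 (57.1%), against 17.9% of all genes. Its median domain was 13.4 kb, and of all genes with domains of 10 to 20 kb 32.4% had a summit. The 4 were the tandem copies ph-p and ph-d and the neighbouring paralogs Psc and Su(z)2. PRC1 also had the strongest summit of all 35 genes. That summit was at ph-p (polyhomeotic proximal, FBgn0004861), which encodes a subunit with a self-associating SAM domain. Its peak at X 2137245 to 2137474 had a signal of 745 and rank 8 of 2883, with 445 in the list of replicate 1 and 302 in that of replicate 2. The summit lay inside the gene, 500 bp upstream of its nearest annotated transcript start, at the edge of the 500 bp counted as promoter. Further upstream in the gene, a summit in the 5′ UTR (X 2137782 to 2137955) had a signal of 299, 196 in replicate 1 and 102 in replicate 2. An intronic summit 1231 bp downstream of a start had a signal of 123. All 3 passed the threshold in both replicates.

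The tandem copy ph-d (polyhomeotic distal, FBgn0004860), which encodes a closely related protein, had a single and weaker summit. It lay 814 bp upstream of ph-d, between the copies, at X 2123952 to 2124247, with a signal of 94.9 and 52.8 and 39.8 in the replicates. Because the copies are related, the stretch within 50 bp of each summit was compared with the domain of the other copy. The best ungapped match was 42.6% to 45.5% identical and the longest exact run 9 to 11 bp, so none of the 4 stretches had a near-identical ungapped counterpart there.

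**Figure D2:**
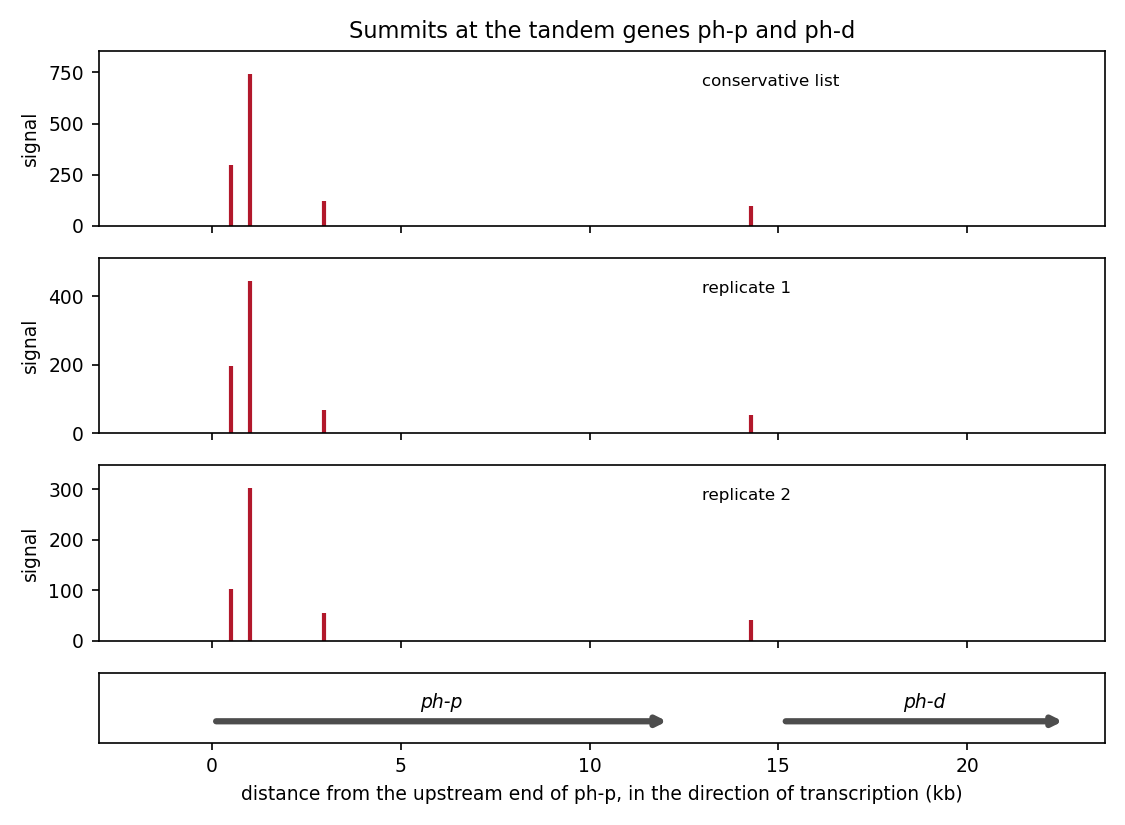
Summits at ph-p and ph-d, plotted by distance in kb from the upstream end of ph-p, in the direction of transcription. Line heights are signal in the conservative list, in replicate 1 and in replicate 2, each on its own linear axis, and arrows are the gene bodies. The order of the 4 summits by signal, from 745 to 94.9 in the conservative list, is the same in each panel.

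Psc and its neighbour and paralog Su(z)2, which encode RING-finger proteins of PRC1, each had 2 summits. The stronger at Psc (FBgn0005624, 2R 12975533 to 12975639) was intronic, 5085 bp downstream of the nearest start of the gene, with a signal of 173 and with 124 and 55.1 in the replicates. Its promoter summit had 67.1, passed the threshold in replicate 2 (32.9) and not in replicate 1 (28.8). Both summits of Su(z)2 (FBgn0265623) were at promoters, within 156 bp of a start. The one at 2R 12996442 to 12996737 had a signal of 140.4, with 85.2 and 49.96 in the replicates, and the other had 64.7 and passed in neither replicate alone. The other PRC1 genes had no summit. Pc, whose chromodomain binds methylated H3, had a strongest ranked peak of 27.8 with a score of 64. The authors' score runs to 1000 and the thresholded lists begin at 830. Sce, the ubiquitin ligase for H2A, stood at 31.5, and Scm, another SAM domain protein, had no peak in the ranked list that compared the replicates, from which these values come, and a strongest peak of 13.4 in the ranked list of replicate 2.

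Of the 6 PRC2 genes, E(z) and Su(z)12 had a summit each, both at the promoter and both above threshold in 1 replicate only. This share was 33.3%, against 17.9% of all genes. The median domain of the 6 was 6.06 kb, and of all genes with domains of 5 to 10 kb 21.5% had a summit. E(z) (FBgn0000629, 3L 10637884 to 10638179), the gene of the catalytic methyltransferase, had a signal of 106 at a summit 98 bp from its start and 114 bp from that of the neighbour Cnep1r2. It passed in replicate 1 (77.5) and not in replicate 2 (31.8). Su(z)12 (FBgn0020887, 3L 19923168 to 19923463), a subunit the enzyme needs for activity, had 75.4 at a summit 146 bp from its start and 355 bp from that of Pfdn6. Here replicate 2 passed (33.95) and replicate 1 did not (39.2). The remaining 4 had no summit, and their strongest ranked peaks had scores below 830. Their signals were 26.6 at esc, the WD-repeat subunit, and 23.6 at Caf1-55, a histone binder shared with other complexes. Pcl and Jarid2, which encode accessory subunits, had 31.1 and 33.7.

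In PhoRC 1 of 3 genes (33.3%) had a summit, against 17.9% of all genes. The median domain of the 3 was 9.14 kb, and of all genes with domains of 5 to 10 kb 21.5% had a summit. The 1 gene was phol, which encodes a DNA-binding paralog of Pho. The phol summit (FBgn0035997, 3L 9457709 to 9457899) had the second highest strongest signal among the 35 genes, 441 with rank 39, and 281 and 158 in the replicates. It lay 1522 bp upstream of phol, 109 bp from the start of CG3552 and also within 500 bp of CG3437, so that by the nearest start it belongs to a neighbour. The gene pho, on chromosome 4, had no peak in its domain in any of the lists, including the ranked lists of both replicates. In the ranked list that compared the replicates 4 of the 35 members (11.4%) and 7.38% of all protein-coding genes had no peak, and Hcf, a further gene of chromosome 4 looked at here, likewise had none in any list. Sfmbt, which encodes the partner of Pho in the complex, reached 43.9 in the ranked list, with a score of 595.

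PR-DUB had a weak summit at calypso (FBgn0262166, 2R 16196732 to 16197027), the gene of its catalytic subunit. The signal was 71.8, above threshold in replicate 1 (44.1) and below it in replicate 2 (25.3). This summit too was nearer to other genes, 162 bp from the start of CG42837 and within 500 bp of Lipt1 and CG44242, against 547 bp from that of calypso. Asx, the gene of the other subunit, had a strongest ranked peak of 20.1.

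Of the 6 activator genes of histone methylation 1 (16.7%) had a summit, a share close to the 17.9% of all genes. It was trx (trithorax, FBgn0003862, 3R 14277986 to 14278281), the H3 methyltransferase that gave the group its name. The summit was intronic, 8769 bp downstream of the nearest start of trx, with a signal of 75.3, and passed in neither replicate's own list (34.9 and 43.9). The other 5 were ash1, a methyltransferase, ash2, a core subunit of COMPASS complexes, Utx, the demethylase for the PRC2 mark, and the methyltransferases trr and Set1. Their strongest ranked peaks were 42.3 at ash1, 45.4 at ash2 and 27.2 at trr, all with scores below 830. Utx and Set1 had none in the list that compared the replicates, and strongest peaks of 24.3 and 15.8 in the ranked list of replicate 1.

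The Brahma complex had strong summits at 2 of its 4 genes (50%), where 17.9% of all genes had a summit of any strength. The median domain of the 4 was 10.8 kb, and of all genes with domains of 10 to 20 kb 32.4% had a summit. At brm (FBgn0000212, 3L 15982922 to 15983094), the gene of the ATPase, the signal was 332, with 205 and 130.0 in the replicates. The summit lay 138 bp upstream of brm and 128 bp from the start of the neighbour Arl1. At osa (FBgn0261885), the gene of a DNA-binding subunit, both summits passed in each replicate. The stronger (3R 17704322 to 17704480), in an intron, had 335, with 233 and 103 in the replicates, 13947 bp from the nearest start of osa and 708 bp from that of the non-coding gene lncRNA:CR46035. The weaker had 191 and counted as promoter, 141 bp from the start of lncRNA:CR46036. It too lay inside osa, 17750 bp from the nearest start of osa and 13529 bp from that of the protein-coding gene CG31249. The core subunit genes mor and Snr1 had no summit in the conservative list.

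The remaining activators with a summit were spread over several kinds of protein. Trl (FBgn0013263), the gene of GAGA factor, had the highest signal of the activators, 397 at 3L 14759411 to 14759612, with 267 and 119.5 in the replicates. That summit was within an intron, 1529 bp upstream of a start of Trl and equally 1529 bp from a start of CG42507. A promoter summit of Trl, 113 bp from a start, had 155 (93.1 and 58.8). The summit of kis (FBgn0266557, 2L 223476 to 223621), a chromodomain remodeller, had 219, with 156 and 60.1 in the replicates, 1627 bp from its own nearest start and 70 bp from that of lncRNA:CR44222. The gene of the remodelling ATPase dom reached 43.4 in the ranked list. In the kinase module of Mediator, skd (FBgn0003415) had an intronic summit of 126 (3L 21009683 to 21009978), nearer to the start of scaRNA:PsiU6-40 than to its own, and a promoter summit of 72.2, 75 bp from the start of Pdss2, while its partner kto had a strongest ranked peak of 32.1. Alh (FBgn0261238), which encodes a PHD finger protein, had 3 weaker summits of 86.6, 84.9 and 60.2, of which the second lay 96 bp from its own start and 267 bp from that of CG10098.

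The groups were also compared in the position and strength of their summits. Of 12 repressor summits 8 were at promoters and 2 in introns, and of 12 activator summits 6 were at promoters and 6 in introns. A promoter here is within 500 bp of a start of any gene, coding or not. The promoter summits of phol, calypso, kis and osa were over 500 bp from a start of the member itself. The median of the strongest signal was 123 for bound repressors (71.8 to 745) and 219 for bound activators (75.3 to 397), and the range of the activators lay within that of the repressors. Bound repressors had a median of 1 summit and bound activators of 2. Domains were longer in activators, with a median of 14.8 kb against 8.18 kb in repressors and 4.16 kb in all genes. None of these differences between the groups was tested.

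Longer domains held a summit more often over the genome, so the shares are given by length as well. Under 5 kb, 11.1% of protein-coding genes and 1 of 5 members had a summit. From 5 to 10 kb the values were 21.5% and 4 of 12, from 10 to 20 kb 32.4% and 5 of 11, and above 20 kb 44.6% and 5 of 7. In the 5 to 10 kb class 4 of 7 repressors and 0 of 5 activators had a summit. Above 20 kb there were no repressors, and 5 of 7 activators had a summit. Repressors with a summit therefore came from domains of up to 20 kb and activators from domains above 10 kb. The part of length in the difference between members and all genes was not tested.

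Shares under other lists and rules kept members above the background. The other thresholded list also gave 8 repressors and 7 activators, where 19.1% of all genes had a summit. Replicate 1 alone had summits at 7 repressors and 6 activators (13.5% of all genes) and replicate 2 alone at 6 and 6 (11.9%). With each summit given to the protein-coding gene with the nearest start, at any distance, 6 repressors and 7 activators had one (14.8% of all genes). These 7 need not be the 7 of the main count: the summit of brm, for one, was nearer to the start of Arl1. Within 500 bp of a start of the gene there were 5 and 4 (10.6%). The ranked list that compared the replicates, read at scores of 830 or more, gave 8 repressors and 9 activators (18.2%).

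**Figure D3:**
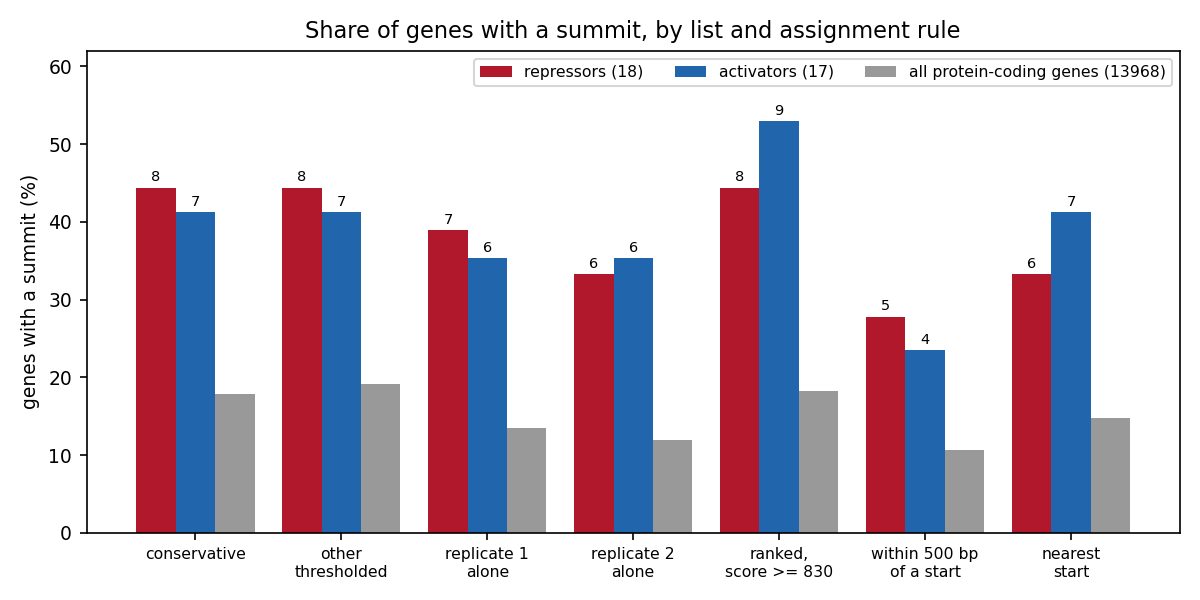
Percent of repressors, activators and all protein-coding genes with a summit, under 5 peak lists and 2 other rules for assigning summits to genes. The nearest-start rule sets no limit on distance. Numbers above bars are genes. In each setting both groups stand above all genes, and activators move from 7 to 9 in the ranked list while repressors stay at 8.

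By position, 14 of the 24 summits (58.3%) had a start of any gene's transcript within 500 bp, against 44.2% of the whole list. Introns held 8 (33.3% against 38%), the 5′ UTR 1 (4.17% against 0.451%) and intergenic sequence 1 (4.17% against 15.6%). No member summit fell in coding sequence or a 3′ UTR, which held 1.04% and 0.659% of the list. Only 10 of the 24 were within 500 bp of a start of the member itself, 8 were 500 to 2000 bp away and 6 farther. Another gene's start lay within 500 bp of 9 summits, and a protein-coding neighbour's start was nearer than the member's own for 5. Peak lists alone do not tell which gene, if any, responds to the binding at any of the 24 summits.

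The replicates shared most of their peaks at these genes. Each replicate had 19 thresholded peaks in the domains, of which 15 (78.9%) overlapped a thresholded peak of the other by at least 1 bp. Over the whole lists the shares were 59.5% of replicate 1 and 71.0% of replicate 2, and the difference was not tested. With 50% reciprocal overlap required, 12 of the 19 member peaks were shared in each direction. All 19 of each had an overlapping peak in the other's ranked list. Of the 24 conservative summits 15 passed in both replicates, 3 in replicate 1 only, 3 in replicate 2 only and 3 in neither, and over the list 40.5%, 19.3%, 10.1% and 30.1% did. The 3 in neither were the second summit of Su(z)2, that of trx and the weakest of Alh. By gene, 11 members had a thresholded summit in both replicates, E(z) and calypso had one in replicate 1 only, Su(z)12 had one in replicate 2 only, and trx had none in either.

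Across the 24 summits the signals of the replicates followed each other, with a Spearman's rho of 0.845 as a description over summits of the same libraries. Signal was higher in replicate 1 at 19 of 24, with a median ratio of 1.53 (0.639 to 2.60), and the lists have separate scales. The 5 with the higher value in replicate 2 were the promoter summit of Psc, those of trx and skd near Pdss2, and 2 of Alh.

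**Figure D4:**
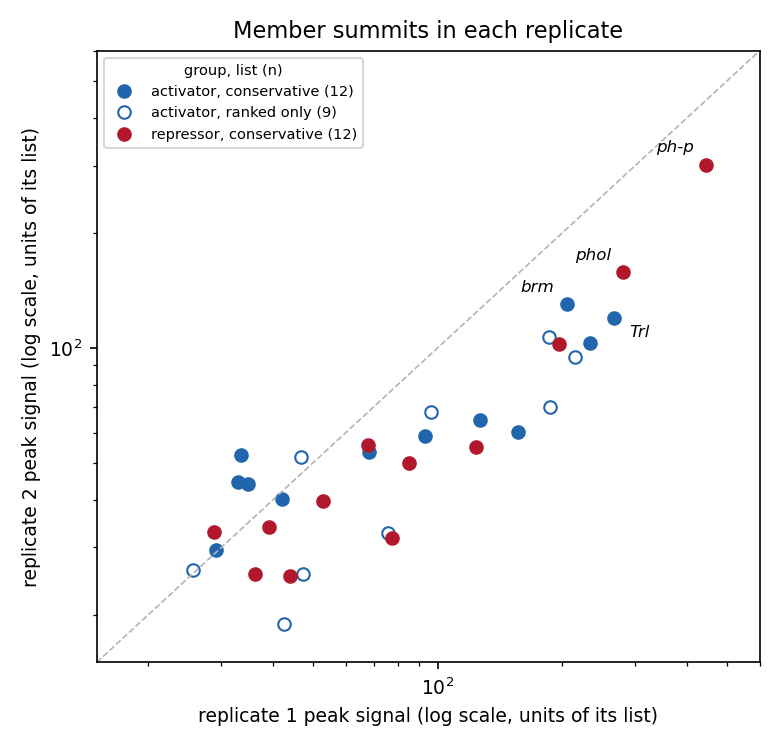
Signal of member summits in the ranked list of replicate 1 (horizontal) and of replicate 2 (vertical), both log axes in the units of each list; the dashed line marks equal numbers. Filled circles are the 24 summits of the conservative list and open circles the 9 found in the ranked list alone. Most points lie below the line, and ph-p, at 445 and 302, is highest in both replicates.

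Sequence motifs were counted within 50 bp of the summits on both strands, as letters only. AAATCA was found at 1 of 24 member summits (4.17%) and at 17.9% of the list. GAGAG, bound by GAGA factor, was at 8 of 24 (33.3%) against 11.7% of the list: at the promoter summit of Psc, both summits of Su(z)2, trx, the weaker summit of osa and all 3 of Alh. It was at none of the summits of Trl, the gene of GAGA factor. GCCAT, the core of the site bound by Pho, was at 3 (12.5% against 14.8%). TATCGATA, the site of DREF, and GTCACACT, a core promoter element, were at 0 of 24, with 1.25% and 0.763% in the list. TTAAAA, added after the values of the whole list were known, was at 8 (33.3% against 27.3%). GC content in this window had a median of 32.7% (14.9% to 61.4%) at member summits and 35.6% in the list.

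At 4 activator genes on chromosome 3R, peaks of the ranked list reached the threshold score and yet were missing from every thresholded list. There were 9 such peaks, at trx, mor, tara and Alh, beside the 24 conservative summits of the members. Over the genome 75 of the 2958 ranked peaks at that score were not in the conservative list, and 36 of the 75 lay on 3R. The strongest at trx and Alh had a higher signal than their conservative summits, and tara and mor had no conservative summit. An intronic peak of trx (3R 14283809 to 14283941) had a signal of 258, with 187 in replicate 1 and 70.1 in replicate 2, above the 75.3 given for trx earlier. An intronic peak of Alh (3R 7108958 to 7109102) had 308, with 215 and 94.8. At tara (FBgn0040071), which encodes a nuclear protein of the group, 4 peaks had 283, 172, 89.3 and 59.5, the strongest with 186 and 107 in the replicates. The start of lncRNA:CR45643 was nearer than that of tara to the strongest of them, and that of bor to the weakest. At mor (FBgn0002783) a peak of 73.6, with 47.2 and 25.6, lay nearer to the start of Hel89B (1085 bp) than to that of mor (1470 bp).

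Of these 9 peaks, 7 reached a score of 830 in the ranked list of replicate 1 and likewise 7 in that of replicate 2. The text files deposited with the samples name a further file behind the thresholded lists whose content is not described, and its part in the missing peaks was not tested. Counts of bound activators in the thresholded lists therefore leave out tara and mor, and the signal of trx and Alh there is that of weaker summits. With 5 kb upstream in place of 2 kb, the share with a conservative summit rose from 17.9% to 23.6% over all protein-coding genes. Among the members 17 of 35 then had one (48.6%). The gains were tara, with a signal of 526 and rank 26, 3160 bp before the gene, and Snr1, with 110.5, 3825 bp before the gene.

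Genes of proteins associated with these complexes had fewer summits. Of 36 such genes 4 (11.1%) had one, against the 17.9% of all genes, with 1 of 11 on the repressor side and 3 of 25 on the activator side. The 4 were psq, a DNA-binding protein that acts with GAGA factor (63.0), Rbbp5, a core COMPASS subunit (78.8), lid, an H3 demethylase (68.7), and Mi-2, a remodelling ATPase (180.4). Those of Rbbp5 and lid were in neither the other thresholded list nor a replicate's own. Kdm2, a histone demethylase, had a peak of 145 in the ranked list alone, on 3R like the 9 above. The associated genes had a median domain of 6.81 kb, shorter than the 10.3 kb of the 35 members, and the difference in shares was not tested.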

How the data were processed

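Peak lists were analysed for 2 biological replicates, numbered as in the labels. Per the labels, peaks are on dm6, and per the deposited text files the authors made ranked and thresholded lists from each replicate's alignments and from those of both. For the aligner and the peak caller, the names were not given in the sources used here. The signal per peak is the authors' value on the scale of its list, and the deposited score is a whole number up to 1000 that reflects reproducibility, at least 830 in the thresholded lists. Read depth per library is unknown.

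Peaks on assembled chromosomes were used, leaving out 16 of the conservative list. Genes came from Ensembl release 115 (BDGP 6.54), motifs and sequences from the Release 6 genome of RefSeq. A summit counted for a gene inside its body or 2 kb upstream. The symbols calypso and lid were matched through RefSeq synonyms. Assignment was checked on simulated summits. Python 3.11.15 with pandas 2.3.3 and numpy 2.4.6 was used.

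Members and lists were chosen with earlier results of these data known, so counts stand beside the background with no test. All 35 members are named, neighbours where their start is within 500 bp of a summit or as near as the member's or nearer, and associated genes where they hold a summit. Exceptions chosen after their values were seen are Kdm2, Hcf, the trx sequence and the summits 5 kb upstream. Alternatives were other lists, domains, start windows and motif windows, each replicate alone, and the members without 4 genes of mixed role.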

Additional observations from a re-analysis of the deposited data

Results flagged for a closer look

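In the domains of the 35 genes, 9 peaks of the ranked list that compared the replicates reached the threshold score and were absent from the conservative list, a signal outside the list the counts rest on. The conservative list held 24 summits in these domains, and over the genome it lacked 75 of the 2958 ranked peaks at that score. All 9 were on 3R, at trx, mor, tara and Alh, and the strongest had signals of 308 at Alh, 283 at tara, 258 at trx and 73.6 at mor. No control library was analysed here to set beside them.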

How the results depend on the processing

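Of the alternative values for the main counts, 36 stayed within 1.5 times the reported count and 5 did not. Within 500 bp of a transcript start 9 members had a summit, with 5 repressors and 4 activators. Within 1 kb of a start 4 of 17 activators had a summit (23.5%, against 13% of all genes), and in the gene body alone 5 of 18 repressors did (27.8% against 8.56%). With a replicate left out, the counts were 12 to 13 members, 6 to 7 repressors and 6 activators. Without Asx, Caf1-55, Alh and dom, 8 of 16 repressors and 6 of 15 activators had a summit. Motif counts moved with the window: AAATCA was at 0 of 24 summits in 51 bp and at 3 in the widest window (9.78% and 28.7% of the list), GAGAG at 4 and 11 (5.48% and 26.6%), and GCCAT at 1 and 6 (7.6% and 28.6%). TTAAAA was at 4 in 51 bp (14.4% of the list); this motif and the median signal in the ranked list, which kept within 1.5 times, were added after the data were seen. Without replicate 1 the median strongest signal was 52.5 for repressors and 81.4 for activators, on the scale of the other list. No paired analysis was possible because there is 1 group. The unknown read depth and the lack of a control library limit what a missing peak can show.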
